A study of Danio rerio with 20 samples.

Results

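The visual opsin genes of zebrafish (Danio rerio) were examined in whole larvae that had been kept with extracts of treated wastewater. The set holds 10 of the 32520 genes in the count table, found by symbol: the cone opsins opn1sw1, opn1sw2, opn1mw1, opn1mw2, opn1mw3, opn1mw4, opn1lw1 and opn1lw2, the rod opsin rho and the pineal opsin exorh. Larvae were wild type and were collected at 5 days post fertilisation. SEC larvae had spent the time from day 4 to day 5 in water with extract of a wastewater plant's secondary effluent at a strength labelled 20x, taken in the sampling campaign JUN20 or OCT20. CTRL larvae stood beside each campaign as its own control group, and the labels say no more of their water. Each of the 4 groups (CTRL JUN20, SEC JUN20, CTRL OCT20 and SEC OCT20) held 5 replicates, each a pool of 10 whole larvae. The comparisons ask whether opsin transcripts differed with extract in either campaign, and whether the campaigns differed.

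Opsins are the light-catching proteins of photoreceptors. Each binds a retinal chromophore, and on absorbing light activates transducin, which leads through a phosphodiesterase to the closing of cation channels. Each zebrafish cone type makes pigments of a single spectral class. opn1sw1 encodes the ultraviolet pigment, opn1sw2 the blue pigment, the opn1mw genes the green pigments and the opn1lw genes the red pigments, while rho encodes the pigment of rods. exorh, exo-rhodopsin, is made in the pineal organ, not in retinal rods. The green and the red genes are tandem duplicates, and in zebrafish the copies of an array are switched on at different times and places in the retina.

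Library totals ran from 28.8 to 59.9 M counts over the 20 libraries. Levels are given as CPM, a gene's counts per M counts of its library after TMM scaling between libraries, and mean values carry the SD over 5 pools. A log2 change is given with its standard error, and a gene is said to have risen or fallen where the p-value of edgeR's quasi-likelihood test, adjusted over 23121 genes, was under 0.05. The labels do not say that pools came from separate spawns, so p-values measure the spread between pools. The 10 October libraries stood in 2 sets that do not follow the treatment. A poorly described gene, si:dkey-269o24.1, had 16 to 29 counts in CTRL replicates 1, 3 and 5 and SEC replicates 4 and 5, called the low side here, and 106 to 204 in the other 5, the high side. In June the same gene ran from 8 counts (CTRL replicate 2) to 256 (SEC replicate 2), and those libraries were not divided. When each library was centred on its group, the leading principal component took up 23% of the remaining variance, and its sign gave the same sides in 10 of 10 October libraries. The gene was known from earlier work on these same data, so this match is not independent support for the sides. October values are therefore also given by side. In whole larvae, fewer photoreceptors and less opsin RNA per photoreceptor cannot be told apart.

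Of the 10 opsins, 9 passed the filter on low counts. The exception was opn1mw4, which had 2 counts in CTRL JUN20 replicate 2 and 0 in the other 19 libraries, where 3 counts would correspond to 0.0501 to 0.104 CPM. opn1mw3 was close to this floor as well, with 6 to 23 counts in a library. In June its mean was 0.268 ± 0.104 CPM without and 0.260 ± 0.105 with extract, and in October 0.405 ± 0.115 without and 0.412 ± 0.154 with it. The remaining opsins had between 52 and 65650 counts per library. Counts were not divided by transcript length, so levels of different opsins are not ranked against each other.

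The ultraviolet opsin, the blue opsin, the green opsin opn1mw1 and rhodopsin were lower in extract-exposed larvae of both campaigns, with a far larger change in opn1mw1 than in its neighbour opn1mw2. Of the 7 cone opsins tested, 3 fell in JUN20 and 5 in OCT20. In JUN20 opn1sw1, opn1sw2, opn1mw1 and rho fell, 4 of 9 tested, and none rose. Over all genes tested, 10.8% were called in JUN20, 4.9% lower and 5.92% higher. In OCT20 these 4 and also opn1lw1, opn1lw2 and exorh fell, 7 of 9, and none rose, where 18% of all genes were called, 8.49% lower and 9.54% higher. No opsin was higher at an unadjusted p under 0.05 in edgeR's test in either campaign. The median log2 change over the 9 opsins was -0.35 in JUN20 and -0.57 in OCT20, beside 0.00 and -0.01 over all genes. opn1mw2 and opn1mw3 were called in neither campaign. All 5 SEC pools lay outside the range of the 5 CTRL pools for 4 opsins in JUN20 and 5 in OCT20, against 12.6% and 11.1% of all genes. Scaled by library totals alone, 1800 genes were higher and 724 lower in JUN20, against 1368 and 1133 with TMM, and the opsin counts of 4 and 7 stood. In a fit of the June libraries alone 6 opsins were called, opn1lw2 and exorh being added. That fit also called more of all genes, 2003 higher and 1663 lower of 23059, against 1368 and 1133 in the main fit.

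**Figure D1:**
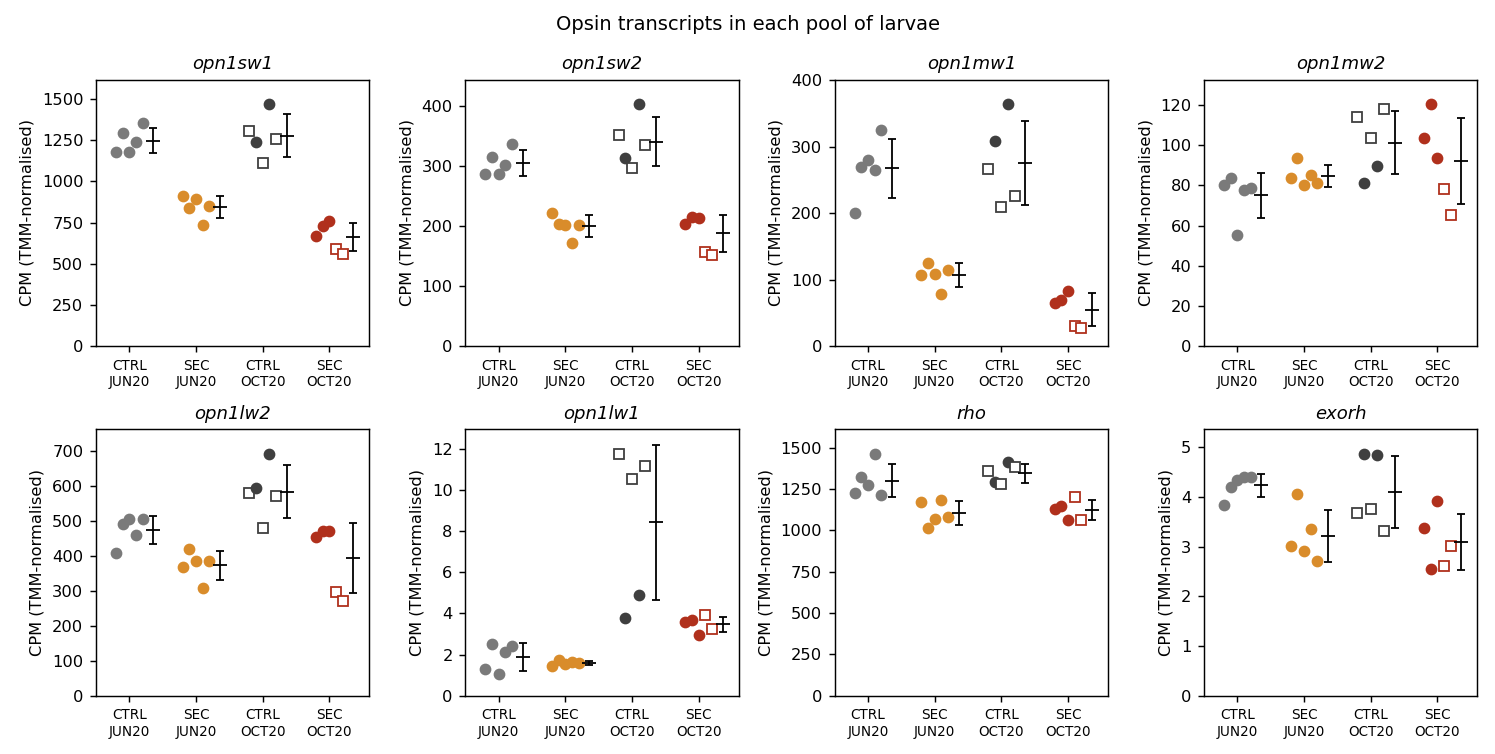
Level of 8 opsins in every pool, in TMM-normalised CPM on axes that start at 0, by group. Circles and open squares are single pools, with open squares for the October pools of the low side, and the bar beside each group is the mean ± SD of 5 pools. For opn1sw1, opn1sw2, opn1mw1 and rho every SEC pool lies below every CTRL pool of its campaign, while opn1lw1 is high in 3 CTRL OCT20 pools.

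Both short-wavelength opsins fell in each campaign. In replicate order, opn1sw1 (ENSDARG00000045677) stood at 1177, 1295, 1178, 1238 and 1352 CPM in CTRL JUN20 and at 908, 836, 893, 734 and 854 in SEC JUN20. In October the CTRL pools held 1305, 1242, 1114, 1470 and 1259 CPM and the SEC pools 671, 729, 759, 591 and 559. Every exposed pool was below every control pool in each campaign. The ultraviolet opsin fell 1.48-fold in JUN20 (log2 change -0.56 ± 0.08, adjusted p = 0.000112) and 1.93-fold in OCT20 (-0.95 ± 0.08, adjusted p = 4.22e-08). Control means were 1248 ± 76.1 and 1278 ± 129 CPM, and the campaigns' controls overlapped.

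The blue opsin opn1sw2 (ENSDARG00000017274) fell likewise. Pools of CTRL JUN20 held 286, 314, 287, 302 and 337 CPM and those of SEC JUN20 221, 203, 202, 171 and 201. In CTRL OCT20 the values were 352, 313, 297, 403 and 335 CPM, and in SEC OCT20 203, 215, 212, 157 and 152. Again no exposed pool reached the lowest control pool of its campaign. opn1sw2 fell 1.53-fold in JUN20 (-0.61 ± 0.10, adjusted p = 0.000451) and 1.81-fold in OCT20 (-0.86 ± 0.10, adjusted p = 3.42e-06).

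Among the green opsins the first gene of the array and the second differed sharply. opn1mw1 (ENSDARG00000097008) had the largest fold change of the 9 opsins in each campaign. Its CTRL JUN20 pools held 199.9, 268.9, 280.5, 264 and 325 CPM and its SEC JUN20 pools 108, 125, 108, 78.7 and 115. CTRL OCT20 pools held 266, 309, 209, 364 and 226 CPM, and SEC OCT20 pools 65.3, 69.6, 82.8, 30.2 and 26.7. The groups were far apart in both campaigns, and the 2 lowest of all 20 pools were the SEC OCT20 pools of the low side. opn1mw1 fell 2.5-fold in JUN20 (-1.32 ± 0.26, adjusted p = 0.00293) and 5.02-fold in OCT20 (-2.33 ± 0.27, adjusted p = 5.56e-06).

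In the RefSeq gene table, whose assembly GRCz12tu is not the build of the counts, no protein-coding gene lies between opn1mw1 and opn1mw2. The level of opn1mw2 (ENSDARG00000044280) was 80.4, 83.5, 55.4, 77.7 and 78.7 CPM in CTRL JUN20 and 83.8, 93.5, 80.2, 85.4 and 81.0 in SEC JUN20. In October it was 114, 81.2, 104, 89.6 and 118 CPM in CTRL and 103, 121, 93.5, 78.1 and 65.4 in SEC. The groups overlapped in both campaigns. The log2 change was 0.17 ± 0.14 in JUN20 (adjusted p = 0.494) and -0.14 ± 0.14 in OCT20 (adjusted p = 0.575). opn1mw3 was at -0.04 ± 0.35 (adjusted p = 0.96) and 0.05 ± 0.33 (adjusted p = 0.953), with errors too wide to show a small change. The 4 green genes are close copies of each other. No rule for reads shared by copies is stated in the labels, and the split between opn1mw1 and opn1mw2 is uncertain to that extent.

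The red opsins held 1 abundant and 1 scarce transcript. opn1lw2 (ENSDARG00000044861), in zebrafish the red copy that is switched on first, stood at 409, 490.4, 505, 459.9 and 506 CPM in CTRL JUN20 and 369, 419, 384, 308 and 386 in SEC JUN20. Its October values were 580.1, 593, 479, 693 and 572 CPM in CTRL and 454, 471, 472, 297 and 271 in SEC. June groups overlapped in 1 exposed pool and October groups did not overlap. The log2 change was -0.35 ± 0.14 in JUN20 (adjusted p = 0.132), not called, and opn1lw2 fell 1.48-fold in OCT20 (-0.57 ± 0.14, adjusted p = 0.00809). In a fit of the June libraries alone it was called (-0.34 ± 0.08, adjusted p = 0.0145).

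The scarce red gene opn1lw1 (ENSDARG00000044862) was high in a few pools of a single group. June pools held 1.29, 2.54, 1.08, 2.11 and 2.41 CPM in CTRL and 1.47, 1.72, 1.55, 1.62 and 1.59 in SEC. CTRL OCT20 pools held 11.8, 3.80, 10.6, 4.89 and 11.2 CPM, and SEC OCT20 pools 3.57, 3.68, 2.96, 3.90 and 3.23. The 3 high controls were exactly the CTRL pools of the low side, and the other 2 controls lay at or just above the exposed pools. opn1lw1 rose 4.57-fold from CTRL JUN20 to CTRL OCT20 (2.19 ± 0.28, adjusted p = 0.000144), with no overlap, and 2.17-fold from SEC JUN20 to SEC OCT20 (1.12 ± 0.29, adjusted p = 0.0171). With extract it fell 2.45-fold in OCT20 (-1.29 ± 0.27, adjusted p = 0.00172), and in JUN20 the change was -0.22 ± 0.30 (adjusted p = 0.709). The October fall was -1.65 ± 0.22 within the low side (adjusted p = 1.98e-05) and -0.36 ± 0.23 within the high side (adjusted p = 0.333). The red genes are tandem copies as well, so the division of shared reads between scarce opn1lw1 and abundant opn1lw2 is uncertain too.

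Rhodopsin changed least among the opsins that fell in both campaigns. rho (ENSDARG00000002193) stood at 1227, 1324, 1275, 1465 and 1215 CPM in CTRL JUN20 and 1174, 1018, 1067, 1185 and 1084 in SEC JUN20. In October it was at 1358, 1295, 1279, 1415 and 1383 CPM in CTRL and at 1131, 1148, 1066, 1205 and 1066 in SEC. The gap between groups was narrow but no pool crossed it. rho fell 1.18-fold in JUN20 (-0.23 ± 0.05, adjusted p = 0.0062) and 1.2-fold in OCT20 (-0.26 ± 0.05, adjusted p = 0.00136).

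The pineal opsin exorh (ENSDARG00000111860) was scarce in these whole larvae. Its June pools held 3.84, 4.20, 4.33, 4.41 and 4.40 CPM in CTRL and 3.02, 4.06, 2.91, 3.35 and 2.71 in SEC. October pools held 3.67, 4.87, 3.76, 4.85 and 3.32 CPM in CTRL and 3.37, 2.55, 3.91, 2.60 and 3.01 in SEC. Groups overlapped in each campaign. The log2 change was nearly the same, -0.40 ± 0.13 in JUN20 (adjusted p = 0.0502) and -0.40 ± 0.14 in OCT20 (adjusted p = 0.0455), just outside and just inside the threshold. Leaving out a library ended the October call in 7 of 10 cases (SEC replicates 1, 2, 4 and 5 and CTRL replicates 2, 3 and 4), with adjusted p up to 0.123. It was also lost without the filter (adjusted p = 0.0527) and with the October libraries alone (adjusted p = 0.116). In June, leaving out SEC replicate 2 made the call (-0.50 ± 0.13, adjusted p = 0.0208), as did the stricter filter (adjusted p = 0.0453), the June libraries alone (adjusted p = 0.019) and DESeq2 (adjusted p = 0.0267).

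**Figure D2:**
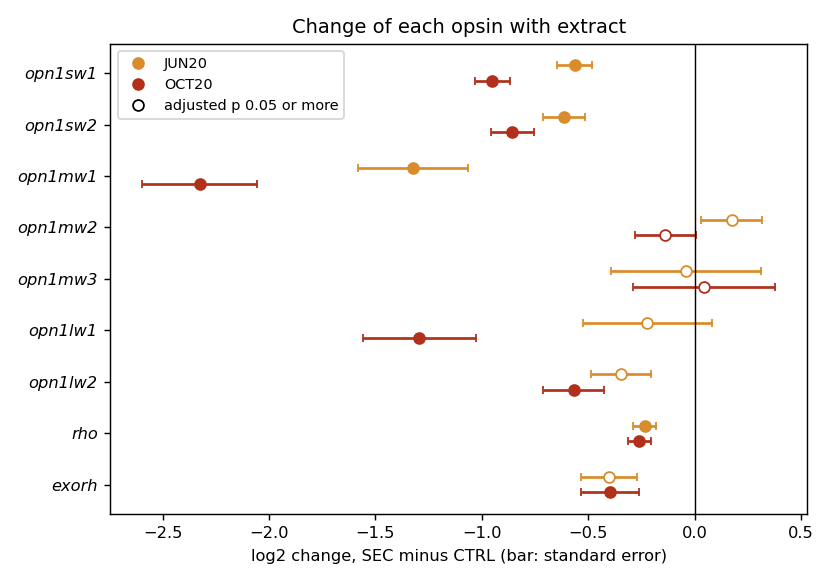
Log2 change of 9 opsins, SEC minus CTRL, in JUN20 (orange) and OCT20 (red), with the standard error as bar and open points where the adjusted p was 0.05 or more. opn1mw1 lies farthest to the left in both campaigns, at -1.32 and -2.33, and opn1mw2 (0.17 and -0.14) and opn1mw3 (-0.04 and 0.05) lie nearest to 0.

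The effect of extract was then compared between campaigns. None of the 9 opsins differed in effect after adjustment in edgeR's test, where 1.03% of all genes did, 0.787% upwards and 0.247% downwards. Before adjustment 3 opsins had a p under 0.05. The difference, OCT20 minus JUN20, was -0.39 ± 0.12 for opn1sw1 (adjusted p = 0.119 from a raw 0.00319), -1.003 ± 0.36 for opn1mw1 (adjusted p = 0.238 from 0.0132) and -1.07 ± 0.40 for opn1lw1 (adjusted p = 0.255 from 0.0156). With the October side as a covariate, opn1sw1 (-0.44 ± 0.09, adjusted p = 0.0117) and opn1mw1 (-1.29 ± 0.24, adjusted p = 0.00997) passed. That covariate was drawn from these same libraries and takes their split out of the error. It also gives CTRL and SEC pools the same shift between sides, so these calls do not settle whether the campaigns differed. DESeq2 called opn1sw1 alone (adjusted p = 0.0486). Both settings also called more of all genes than the main fit, which had 182 upwards and 57 downwards. With the covariate 421 were upwards and 208 downwards of 23121, and with DESeq2 414 and 193 of 28575. For rho the difference was -0.03 ± 0.08 and for exorh 0.01 ± 0.19, both uncalled.

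Between the control groups opn1lw1 was the 1 opsin of 9 called, where 5.8% of all genes were, 2.83% higher and 2.97% lower in October. It was also the 1 opsin without overlap, against 5.74% of all genes. opn1mw2 was at 0.43 ± 0.14 in this contrast (adjusted p = 0.0801) and passed without CTRL OCT20 replicate 2 (0.51 ± 0.15, adjusted p = 0.0365). Without that pool, which was of the high side, calls over all genes rose to 1282 higher and 1128 lower, against 654 and 687. Between the exposed groups 3 of 9 were called, against 12% of all genes, 6.41% higher and 5.58% lower in October, and 1 did not overlap, against 11.8%. opn1sw1 was lower in SEC OCT20 (-0.35 ± 0.08, adjusted p = 0.00843), as was opn1mw1 (-0.96 ± 0.26, adjusted p = 0.0231), and opn1lw1 was higher as given above. The call of opn1mw1 was lost without SEC JUN20 replicate 2 (adjusted p = 0.0574), without SEC OCT20 replicate 4 (adjusted p = 0.0562) and in a fit of the exposed groups alone (-0.96 ± 0.33, adjusted p = 0.0862). These contrasts share their libraries with the effects of extract and are not independent of them. Between exposed groups, and in the difference of effects, a campaign's extract cannot be told apart from its set of larvae and libraries.

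Ratios of opsins within a pool need no scaling between libraries, and 8 pairs were compared in each campaign with a two-sided exact permutation test of 5 against 5 pools, adjusted over the 16 tests. The smallest p this test allows is 0.00794. The ratio of opn1mw1 to opn1mw2 changed most. Its log2 mean went from 1.82 ± 0.39 in CTRL JUN20 to 0.32 ± 0.25 in SEC JUN20, and from 1.42 ± 0.51 in CTRL OCT20 to -0.85 ± 0.48 in SEC OCT20 (exact p = 0.00794 and adjusted p = 0.0212 in each). opn1mw1 thus gave more counts than opn1mw2 in every control pool, and fewer in every SEC OCT20 pool.

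Relative to opn1mw1, opn1sw1 rose by 0.76 in JUN20 and 1.47 in OCT20 (log2; exact permutation test, adjusted p = 0.0212 in each). Relative to rho, opn1sw1 fell by 0.33 in JUN20 and by 0.69 in OCT20 (exact permutation test, adjusted p = 0.0212 in each), and no SEC pool overlapped a CTRL pool in any of these comparisons. The ultraviolet to blue ratio moved little, by 0.05 in JUN20 and -0.09 in OCT20 (exact permutation test, adjusted p = 0.114 in each), with control SDs of 0.016 and 0.045. opn1sw2 over opn1lw1 was lower in JUN20 by -0.47 (exact permutation test, adjusted p = 0.0363), and was at 0.19 in OCT20 (adjusted p = 0.643 in the same exact test). The June call was lost in 8 of 10 cases when a library was left out. With a library left out the smallest p of the exact test is 0.0159, so that loss need not rest on single pools. In this exact test opn1sw1 over opn1lw1 (-0.42, adjusted p = 0.0634) passed in June without CTRL replicate 2 (adjusted p = 0.0318), and rho over exorh (0.13, adjusted p = 0.433) without SEC replicate 2 (adjusted p = 0.0363). The other pairs were not called, namely opn1lw1 over opn1lw2 in each campaign, and opn1sw1 over opn1lw1 and rho over exorh in October. A larger constant, 5 CPM, changed calls or signs of ratios with the scarce opn1lw1 or exorh, and called opn1sw1 over opn1sw2 in October (-0.10, exact permutation test, adjusted p = 0.0381).

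**Figure D3:**
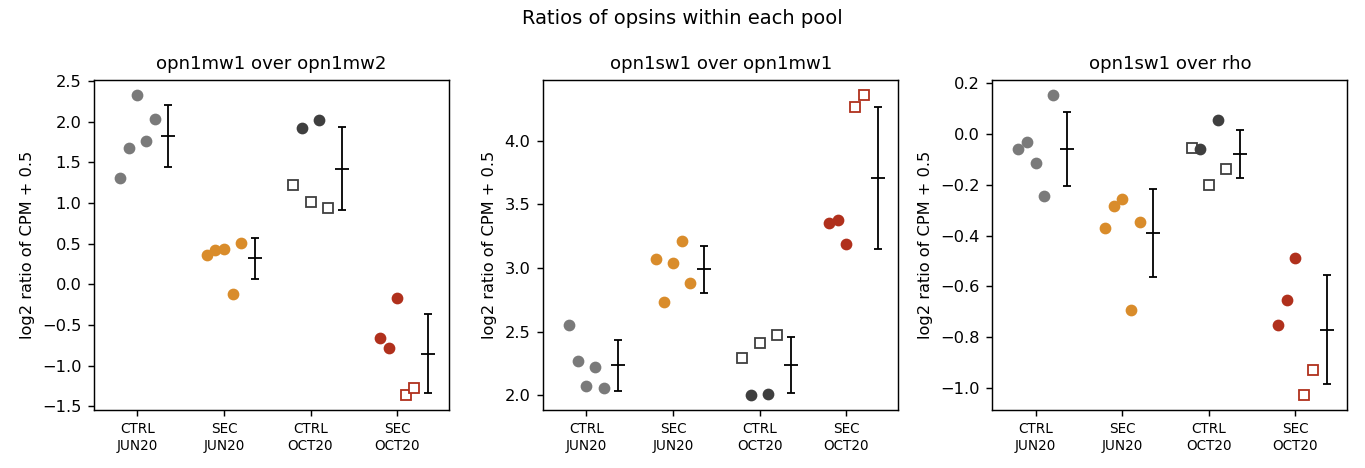
Log2 ratio of 2 opsins (CPM plus 0.5) in each pool for 3 pairs, by group. Points are pools, open squares are October pools of the low side, and bars are the mean ± SD of 5. The ratio of opn1mw1 to opn1mw2 is above 0 in all 10 control pools and below 0 in all 5 SEC OCT20 pools.

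The make-up of the cone opsin counts shifted accordingly, as a description with no test. opn1mw1 gave 11.2% ± 1.25 of the cone opsin counts in CTRL JUN20 and 6.61% ± 0.671 in SEC JUN20, and 10.6% ± 1.47 and 3.77% ± 1.17 in October. The share of opn1mw2 was 3.18% ± 0.501 and 5.29% ± 0.584 in June and 3.97% ± 0.834 and 6.59% ± 0.686 in October. For opn1lw2 it was 20.0% ± 1.12 (CTRL) and 23.1% ± 1.22 (SEC) in June and 22.5% ± 0.673 and 27.9% ± 2.31 in October. opn1sw1 kept a share of 52.6% ± 1.31 and 52.5% ± 1.62 in June, and of 49.5% ± 0.722 and 47.9% ± 3.31 in October. Shares of opn1mw1, opn1mw2 and opn1lw2 did not overlap between CTRL and SEC in October. The 8 cone opsins together stood at 2372 ± 167 CPM in CTRL JUN20 and 1611 ± 132 in SEC JUN20, and at 2587 ± 291 and 1394 ± 258 in October.

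**Figure D4:**
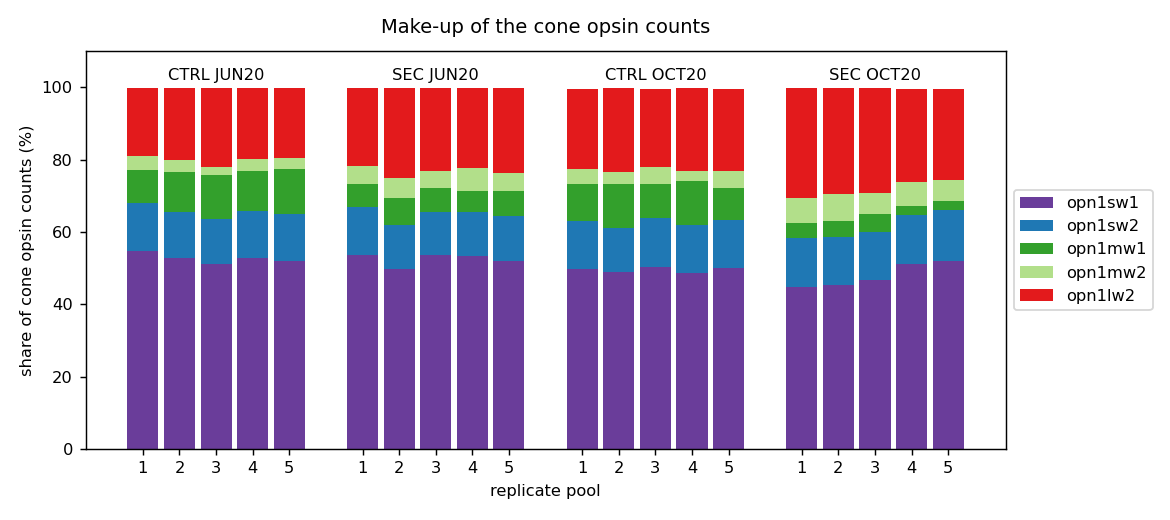
Percent of the summed cone opsin counts given by each of the 5 abundant cone opsins in every pool, stacked, by group and replicate. The dark green band, opn1mw1, is narrower in every SEC pool than in the CTRL pools of its campaign, and the light green band, opn1mw2, is wider.

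Within the October sides 7 of 9 opsins fell on the low side, where 14.2% of all genes were called and 6.12% were lower. On the high side 6 of 9 fell, where 17.4% were called and 8.62% were lower. The low side held only SEC replicates 4 and 5 and CTRL replicates 1, 3 and 5. The sides were drawn from a gene's counts in these same libraries and match their leading component. Spread between sides is thus left out of the error, so these p-values are not those of a grouping set beforehand. opn1mw1 was at -3.04 ± 0.22 on the low side (adjusted p = 1.96e-07) and -2.21 ± 0.19 on the high side (adjusted p = 1.8e-06). For opn1sw1 the values were -1.09 ± 0.09 and -0.91 ± 0.09, for opn1sw2 -1.09 ± 0.11 and -0.77 ± 0.10, for opn1lw2 -0.94 ± 0.12 and -0.46 ± 0.11, and for rho -0.24 ± 0.08 and -0.28 ± 0.08, each of them called. opn1mw2 was called on the low side (-0.64 ± 0.14, adjusted p = 0.0061) and had the opposite sign on the high side (0.31 ± 0.14, adjusted p = 0.163), so its pooled value of -0.14 stands between unlike values. exorh was at -0.34 ± 0.17 and -0.56 ± 0.16 (adjusted p = 0.204 and 0.0204). The difference between sides in the effect of extract passed the adjusted threshold for none of the 9 opsins or the other genes (edgeR). The smallest unadjusted p were 0.000255 for opn1mw2 (adjusted p = 0.135) and 0.000616 for opn1lw1 (adjusted p = 0.144). At an unadjusted p under 0.05, the effect of extract differed between sides for 3171 of 23121 genes, 5 opsins among them.

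Other genes of photoreceptors, from lists drawn up with earlier results of these data known, were examined next. For each list the share over all genes tested was 4.9% lower and 5.92% higher in JUN20, and 8.49% and 9.54% in OCT20. Of 27 measured genes of the cone transduction cascade, 5 fell and 2 rose in JUN20 (median log2 change -0.06), and 7 fell and 4 rose in OCT20 (-0.09). Among those that fell were gnat2, the cone transducin alpha subunit (-0.30 ± 0.09 in JUN20, adjusted p = 0.039; -0.62 ± 0.09 in OCT20, adjusted p = 4.87e-05), and grk1b, a kinase that shuts off cone opsin (-0.58 ± 0.11, adjusted p = 0.00123, and -0.78 ± 0.11, adjusted p = 2.15e-05). The largest fall of the list was in guca1e (-0.83 ± 0.26, edgeR adjusted p = 0.0471, in JUN20 and -1.87 ± 0.28, adjusted p = 7.89e-05, in OCT20). The cone arrestin genes arr3a (0.35 ± 0.07, adjusted p = 0.000586) and arr3b (0.88 ± 0.14, adjusted p = 0.000152) rose in OCT20. The cone phosphodiesterase gene pde6c was at 0.01 ± 0.08 and 0.21 ± 0.08, not called. The summed level of the cone cascade list was 4138 ± 235 CPM in CTRL JUN20 and 4001 ± 264 in SEC JUN20, and 3879 ± 332 and 3950.1 ± 190 in October, with overlap in each campaign. The log2 ratio of opn1sw1 to that sum was -1.73 ± 0.07 and -2.24 ± 0.08 in June, and -1.60 ± 0.12 and -2.59 ± 0.14 in October, with no overlap. For opn1sw2 and opn1mw1 this ratio was also lower in every SEC pool of each campaign. For opn1lw2 it was -3.13 ± 0.10 and -3.43 ± 0.18 in June, with overlap, and -2.74 ± 0.13 and -3.37 ± 0.35 in October, without. For opn1mw2 it was higher on average with extract in June (-5.79 ± 0.25 and -5.55 ± 0.16) and lower in October (-5.26 ± 0.27 and -5.44 ± 0.30), with overlap in each, and for opn1lw1 the groups overlapped in each campaign as well.

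Of 18 genes of the rod cascade 4 fell in JUN20 and 6 in OCT20, and none rose (medians -0.14 and -0.19). Among them guca1a, a guanylate cyclase activator, changed far more than the list medians. It fell in JUN20 (-1.03 ± 0.31, adjusted p = 0.0341) and OCT20 (-1.12 ± 0.32, adjusted p = 0.0181). The summed rod cascade level was 1009 ± 18.9 CPM in CTRL JUN20 and 918 ± 21.1 in SEC JUN20, and 1077 ± 32.7 and 994 ± 17.9 in October. Every SEC pool was below every CTRL pool in each campaign. The log2 ratio of rho to that sum was 0.36 ± 0.11 and 0.27 ± 0.06 in June and overlapped, and was 0.32 ± 0.05 and 0.18 ± 0.07 in October, without overlap. The rod transducin gene gnat1 was at -0.17 ± 0.06 in JUN20 (adjusted p = 0.0826) and fell in OCT20 (-0.25 ± 0.06, adjusted p = 0.00756). The rod marker nr2e3, from the list of transcription factors, was called in neither campaign. It was at -0.22 ± 0.11 in JUN20 and -0.21 ± 0.12 in OCT20 (edgeR, adjusted p = 0.244 in each).

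**Figure D5:**
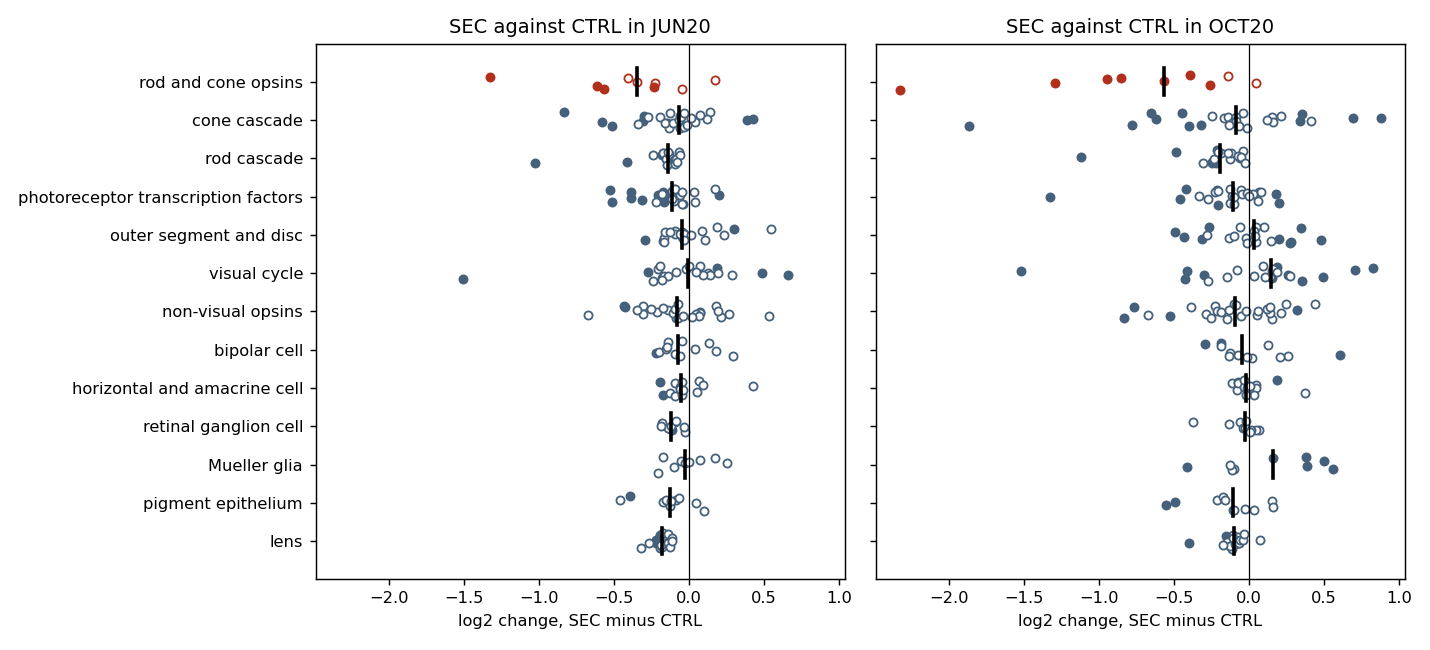
Log2 change, SEC minus CTRL, of each tested gene in the opsin set (red) and in 12 lists of genes linked to the eye (blue), in JUN20 and OCT20. All were measured in whole larvae. Filled points passed the adjusted threshold, and the black bar is the median of the list. The opsin median lies at -0.35 and -0.57, left of the cone cascade medians of -0.06 and -0.09.

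Transcription factors that specify photoreceptors had more calls below than above the control level. Of 24 measured, 9 fell and 1 rose in JUN20 and 5 fell and 2 rose in OCT20 (median -0.11 in each). Those tied to cone opsins in zebrafish, though not each to 1 opsin alone, included six7 for the green opsins (-0.16 ± 0.05, adjusted p = 0.0411, in JUN20 and -0.13 ± 0.05, adjusted p = 0.075, in OCT20) and thrb for the red opsins (-0.17 ± 0.05, adjusted p = 0.0291, and -0.21 ± 0.05, adjusted p = 0.00484). foxq2, tied to the blue opsin, was at -0.11 ± 0.16 and -0.33 ± 0.16, and tbx2b, tied to the ultraviolet cone, at 0.03 ± 0.04 and 0.06 ± 0.04, neither called. rx2, a retinal homeobox gene, fell in JUN20 (-0.38 ± 0.11, adjusted p = 0.0263) and in OCT20 (-1.33 ± 0.12, adjusted p = 2.73e-08), and was the 1 factor of the 24 whose effect differed between campaigns (-0.94 ± 0.16, adjusted p = 0.00311). Of 21 genes of the outer segment and its discs 2 fell and 1 rose in JUN20 and 4 fell and 5 rose in OCT20. In the visual cycle, which renews the chromophore, 2 of 22 fell and 3 rose in JUN20, and 4 fell and 7 rose in OCT20.

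Among 26 other opsins, listed as non-visual, 2 fell in JUN20 and 3 fell and 1 rose in OCT20 (medians -0.08 and -0.09). Of all genes tested, 4.9% fell and 5.92% rose in JUN20, and 8.49% fell and 9.54% rose in OCT20. The list includes rgra and rgrb, also counted in the visual cycle. The melanopsin genes opn4.1 (-0.43 ± 0.09, adjusted p = 0.00228) and opn4xb (-0.43 ± 0.12, adjusted p = 0.0286) fell in JUN20. In OCT20 opn6b (-0.84 ± 0.12, adjusted p = 1.99e-05), opn4xb (-0.53 ± 0.12, adjusted p = 0.00422) and tmtops3a (-0.77 ± 0.26, adjusted p = 0.0462) fell and opn9 rose (0.32 ± 0.09, adjusted p = 0.0124). Beside exorh, 2 of 10 pineal genes fell in JUN20 and 3 fell and 1 rose in OCT20. The June genes were crx and otx5, also counted among the transcription factors above, and the October genes included gnat1 and gngt1, also counted in the rod cascade. Of the pineal genes aanat2, the enzyme of the rhythmic step of melatonin synthesis, was at -0.43 ± 0.19 in JUN20 (adjusted p = 0.153) and fell in OCT20 (-1.19 ± 0.18, adjusted p = 7.39e-05). The pineal markers asmt (-0.51 ± 0.17 and -0.34 ± 0.18) and bsx (0.14 ± 0.17 and 0.12 ± 0.17) were called in neither campaign. The gene that rose in OCT20 was asmt2 (0.35 ± 0.09, adjusted p = 0.00758).

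Genes listed as markers of other eye cells were examined beside the opsins. Pools were whole larvae, so RNA of these genes can also come from outside the eye. In JUN20 the genes that fell were 1 of 12 for bipolar cells, 2 of 14 for horizontal and amacrine cells, 1 of 10 for ganglion cells, 0 of 9 for Müller glia, 1 of 11 for pigment epithelium and 5 of 20 for the lens, and none of these lists had a gene that rose. In OCT20 the corresponding numbers that fell were 2, 0, 0, 1, 2 and 2. Genes that rose were 1 of the bipolar list, 1 of the horizontal and amacrine list and 5 of the Müller glia list. List medians lay between -0.18 and 0.16 in both campaigns, and their part in the opsin values was not tested. Genes of the circadian clock moved as well, with 7 of 33 higher and 7 lower in JUN20 and 18 higher and 8 lower in OCT20. Between the control groups 8 clock genes were higher and 15 lower in OCT20, while opn1lw1 was the single opsin called. The labels give no hour of collection, and the part of the clock in the opsin values was not tested. In the thyroid axis, whose hormone acts on cone opsins in fish, 1 of 11 fell and 1 rose in each campaign. The gene that fell was thrb, also counted among the transcription factors above. Of all genes tested, 4.9% fell and 5.92% rose in JUN20, and 8.49% fell and 9.54% rose in OCT20.

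The opsins opn1sw1, opn1sw2, opn1mw1 and opn1lw2 also varied together among pools of the same group. Pairs that included opn1mw2, opn1lw1, rho or exorh had lower r. As a description over 20 libraries that share depth and handling, deviations from the group means had r = 0.97 for opn1sw1 with opn1sw2, 0.86 for opn1sw1 with opn1mw1 and 0.97 for opn1mw1 with opn1lw2. For rho they had r = 0.03 with opn1sw1 and -0.12 with opn1mw1, and opn1lw1 with opn1lw2 had -0.17. These deviations include the split between October sides. In SEC OCT20 the pools of the low side were lowest in opn1sw1, opn1sw2, opn1mw1 and opn1lw2. The part of the sides in these r values was not tested. Among 12819 other genes with a mean of at least 5 CPM, the genes whose log2 levels over the 20 libraries were most like those of opn1sw1 were gnat2 (r = 0.97), tmx3a (0.95) and krt4, a skin keratin (0.95). For opn1mw1 they were gnat2 (0.96), gnb3b, the cone transducin beta subunit (0.96), and krt4 (0.95). The closest to opn1sw2 were tmx3a (0.97), grk1b (0.95) and elovl4b, an elongase of very long-chain fatty acids (0.94). For opn1lw2 they were gngt2b, the cone transducin gamma subunit (0.90), guk1b, a guanylate kinase (0.89), and grk1b (0.89). For rho they were rom1a, a protein of the disc rim (0.92), adh5 (0.89) and krt15, also a keratin (0.87). For opn1mw2 no gene exceeded r = 0.76 (kmt5b), followed by dus2 (0.73) and gps1 (0.71). Levels across all libraries carry the difference between treated and control groups.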

How the data were processed

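Transcripts were measured in 20 stranded mRNA libraries of pooled whole larvae. The deposited values were raw counts per gene, whole numbers with a different total in each library. Per the submitters' processing notes, the build was GRCz11 and the tools included STAR 2.7.8a, CASAVA, SAMtools and DESeq2 (version given as 3.17). Adaptors carried molecular identifiers, per the labels' protocols. Whether these were used, and with what tool and annotation genes were counted, was not given in the sources used here. The file of each library equalled its column of the series table in 20 of 20 cases.

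Genes were kept with edgeR's filterByExpr (minimum count 10), scaled by TMM and tested with edgeR 4.0.16 in R 4.3.3 (robust quasi-likelihood F test) in a single fit of 4 group means over 20 libraries, with p-values adjusted by Benjamini-Hochberg over all 23121 genes kept. The standard error was the log2 change divided by the square root of F. Ratios used log2 of CPM plus 0.5 and exact permutation tests in scipy 1.17.1. On data simulated for the JUN20 contrast over 23121 genes, the fit recovered 43 of 66 genes changed by 0.5 on the log2 scale, 60 of 67 changed by 1 and 67 of 67 changed by 2. It also called 9 unchanged genes. The 200 genes changed were far fewer than the real contrast called, and scarce genes were not among them. Recovery in the data can therefore differ, and scarce opsins are not covered. The 15 lists held 274 symbols, of which 262 stood once in the table. All 10 opsins are named in each effect of extract. The genes named as most alike were the 3 of highest Pearson r for each opsin with a mean of at least 5 CPM, clone names aside. Of the lists, cell type markers and up to 3 genes of small p are named. The rod markers pde6b and saga were tested, but their values are not given. All called genes of the other opsins are named, a choice made after their values were seen. The opsins, lists and tests were chosen with earlier results of these data known. Alternatives were DESeq2 1.42.0, RLE factors, library totals alone, no filter, a stricter filter, a replicate block, the compared groups alone, the October side as covariate, each library left out, and, added after seeing the data, each October side. Same-numbered CTRL and SEC pools did not deviate together in June, and in October only those of a shared side did, weakly. Protein identity and promoter motifs were not analysed here.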

Additional observations from a re-analysis of the deposited data

Results flagged for a closer look

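In CTRL JUN20, replicate 3 had an opn1mw2 level of 55.4 CPM against 77.7 to 83.5 in the other 4 pools, a gap of 0.791 of the group's range where 0.71 is the limit for 5 values. Without this pool the opn1mw2 change in JUN20 was 0.08. For opn1mw4, CTRL JUN20 replicate 2 was set apart by 0.0430 CPM, which is 2 counts, with 0 in the other pools. These were 2 of 37 sets of 5 pools with any spread, and about 1 in 20 such sets is marked by chance.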

How the results depend on the processing

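The calls of opn1sw1, opn1sw2, opn1mw1 and rho in both campaigns held under every alternative run and without each library. The number of opsins called ran from 4 to 5 in JUN20 and from 6 to 7 in OCT20 when a library was left out. For the difference between campaigns it was 2 with the October side, drawn from these same libraries, as covariate and 1 with DESeq2, against 0. Between the control groups it was 2 with DESeq2, adding opn1mw2, and 1 to 2 when a library was left out. More of all genes were called with these settings as well. For the difference, 421 were upwards and 208 downwards with the covariate and 414 and 193 with DESeq2, against 182 and 57. Between the control groups DESeq2 called 1124 higher and 952 lower, against 654 and 687. The cause of these shifts was not tested.

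Same-numbered pools did not deviate together in June (r from -0.071 to -0.015). In October r ran from -0.355 to 0.228. It was positive only where both pools were of the same side, at 0.152 for replicate 2 and 0.228 for replicate 5. With October deviations split by side, these correlations cannot decide whether the numbers pair the samples, and the labels do not say. With the replicate number as a block, 1018 genes were higher and 741 lower in JUN20, and 1856 and 1482 in OCT20. exorh was then not called in OCT20 (edgeR, adjusted p = 0.108). No opsin ratio passed in the paired exact test (0 pairs in each campaign), whose smallest p is 0.0625 with 5 pairs.

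Some small or scarce values changed sign. On the October high side opn1mw2 was at 0.309 and opn1mw3 at -0.004. Library totals alone put the campaign difference of exorh at -0.041 and rho between exposed groups at -0.038, and the side covariate put that difference of exorh at -0.05. A constant of 5 CPM put opn1sw1 over opn1lw1 at -0.332 and opn1sw2 over opn1lw1 at -0.231 in OCT20, and rho over exorh at -0.061 in JUN20 and -0.092 in OCT20. When a library was left out, opn1mw3 ran from -0.258 to 0.156 in JUN20, from -0.13 to 0.222 in OCT20 and from -0.112 to 0.303 for the difference. That difference ran from -0.072 to 0.0 for rho and from -0.093 to 0.101 for exorh. Between control groups opn1sw1 ran from -0.021 to 0.08, opn1mw1 from -0.082 to 0.124 and exorh from -0.12 to 0.019. Between exposed groups rho ran from -0.006 to 0.049 and exorh from -0.145 to 0.05, and opn1sw1 over opn1lw1 ran from -0.061 to 0.319 in OCT20.

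Depth limits opn1mw3, opn1mw4, opn1lw1 and exorh most.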
